A study of Arabidopsis thaliana with 6 samples.

Results

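The WRKY transcription factors described here are 10 genes of group III, taken from the array by their loci: *WRKY30* (AT5G24110), *WRKY38* (AT5G22570), *WRKY41* (AT4G11070), *WRKY46* (AT2G46400), *WRKY53* (AT4G23810), *WRKY54* (AT2G40750), *WRKY55* (AT2G40740), *WRKY62* (AT5G01900), *WRKY63* (AT1G66600) and *WRKY70* (AT3G56400). Each of the 10 has 1 probe set among the 27827 of the Affymetrix Arabidopsis Gene 1.0 ST array. The list was drawn up with earlier results of these data known, and it leaves out 4 genes usually placed in this group, *WRKY52*, *WRKY64*, *WRKY66* and *WRKY67*, which are set beside the 10 below. RNA came from whole *Arabidopsis thaliana* seedlings 17 days of age, either wildtype (Col-0) or *naa20-1* (SALK_027687), a T-DNA insertion line with less of the catalytic subunit of the N-terminal acetyltransferase NatB. Seedlings of both genotypes grew under short days and were moved at 2 days to MS medium with 2 mM DTT, a reductant, for 15 more days. There were 3 arrays per genotype, of RNA from pooled seedlings per the labels. A legend in the study's supplement instead describes RNA of single plants, from which samples were picked by RNA integrity and purity, and which of these holds is not settled. Arrays of seedlings without DTT were not analysed here, so every difference below is *naa20* minus wildtype on DTT and none is a response to DTT. Per the labels the seedlings were at the same developmental stage when they were moved. The methods state that *naa20* seeds germinate late and, for long treatments, were first kept on control medium. Whether this holds for the array samples is not given in the sources used here, and the part of developmental stage or time on DTT in the differences was not tested.

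WRKY proteins bind the W box, a short promoter element with the core TTGAC, through a WRKY domain with a zinc finger. Group III differs from the rest of the family in the cysteine and histidine pattern of that finger. Many of its members are induced by pathogens or by the defence hormone salicylic acid (SA), and several act in the balance of SA with jasmonate, in leaf senescence, or in osmotic stress. Members regulate each other and bind W boxes in promoters of the same family, and both activators and repressors of defence are among them.

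Signals are log2 values after RMA background correction and quantile normalization, so 1 unit is a 2-fold difference, and differences are taken between genotypes within a gene. The place of a signal among all probe sets is given only to show how close it lay to the lower end of the arrays, since probe sets differ in brightness and whether a gene was above background is unknown. Genes were tested with limma over all 27827 probe sets with Benjamini-Hochberg adjustment, and a gene was called where this p was under 0.05 and the difference 2-fold or more. The transcript of *NAA20* (AT1G03150), the targeted gene, was at 7.44, 6.98 and 7.54 on the *naa20* arrays and at 8.69, 8.56 and 8.83 on the wildtype arrays (log2 difference -1.38, adjusted p = 0.000689 from limma) and did not overlap between genotypes, lower in the arrays labelled *naa20*. The third array of each genotype stood apart, with the lowest array weight in limma (0.62 in *naa20* and 0.562 in wildtype, against 0.95 to 1.55 for the rest), and results on the group III genes are also given without this pair. Among marker genes of tissues, all 7 for root were lower in *naa20* at an adjusted p under 0.05 (mean signal of the list 6.19 to 6.62 in *naa20* and 8.05 to 8.36 in wildtype). Of 4 markers of green tissue 2 were lower (10.58 to 10.83 against 11.20 to 11.29), *LHCB1.3* (log2 difference -0.88) and *LHCA1* (-1.25). *RBCS1A* (14.18 on all 6 arrays) and *PSBO1* (wildtype mean above 99.9% of probe sets) lay at the upper end of the arrays, where a difference can hardly show. Of 4 seed markers 3 were higher (3.91 to 4.05 against 3.36 to 3.55). None of 3 guard cell markers passed the test (7.35 to 7.62 against 7.38 to 7.47, 0 of them at an unadjusted p under 0.05). In whole seedlings, fewer cells of a type and less RNA per cell cannot be told apart. The part of these tissue differences in the results below was not tested.

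Each of the 10 group III genes was higher in *naa20*, and 9 of them were called. Only *WRKY55* fell short of a 2-fold difference. Over all probe sets, 4.95% were called higher and 4.97% lower, and 0 of the 10 were called lower by limma (0 at an unadjusted p under 0.05 too). Without the fold threshold all 10 had an adjusted p under 0.05, against 16.6% of all probe sets in this direction and 17.4% in the other. The 3 *naa20* arrays lay above the 3 wildtype arrays for each of the 10, against 23.4% of all probe sets. For each, an exact two-sided permutation test gave p = 0.1, which is as low as this test can go with 3 arrays a genotype. The median log2 difference was 1.80, against 0.00 over all probe sets, and the range ran from 0.44 in *WRKY55* to 3.02 in *WRKY62*. Without the third array of each genotype 9 genes were again called and the median was 1.62.

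**Figure D1:**
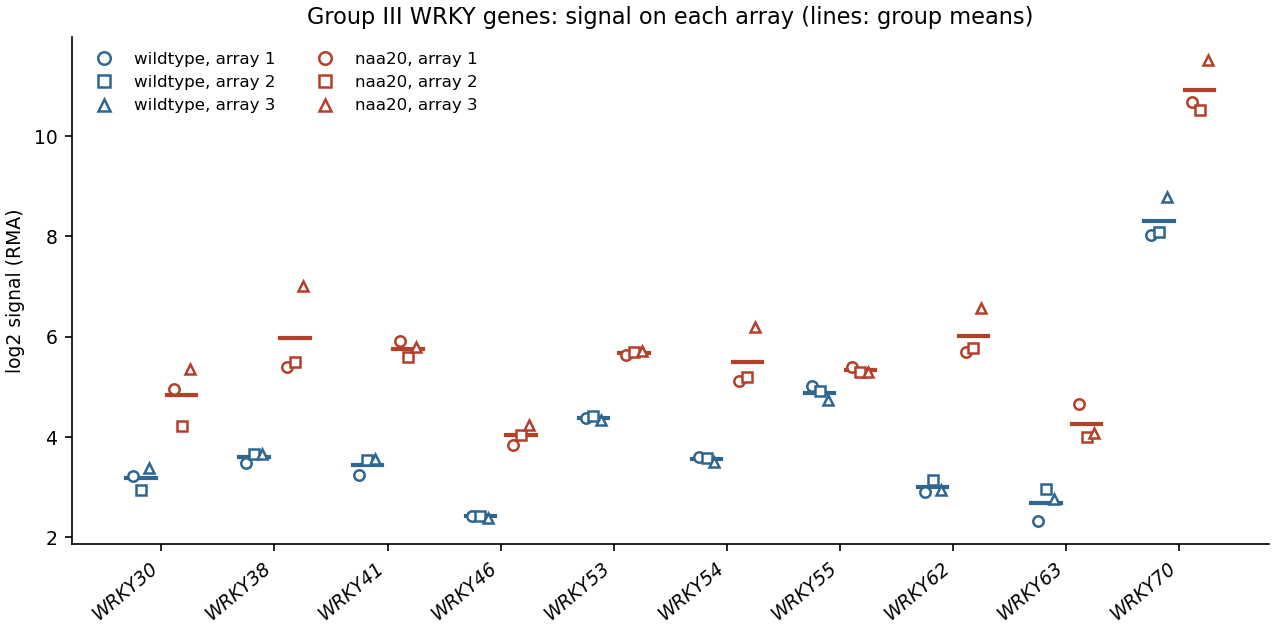
Log2 signal (RMA) of the 10 group III WRKY genes on each of the 6 arrays, with wildtype in blue and *naa20* in red, a marker shape for each array number and a line at each group mean. In every gene the *naa20* points lie above the wildtype points, with the smallest gap in *WRKY55* (0.27) and the widest in *WRKY62* (2.55).

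*WRKY70* is induced by SA through the coactivator NPR1 and represses jasmonate-responsive defence genes. Its signals, in the order of the array numbers here and below, were 10.68, 10.52 and 11.52 in *naa20* and 8.03, 8.09 and 8.78 in wildtype. The third array was the highest of its genotype in each case, and the lowest *naa20* value lay 1.74 above the highest wildtype value. The log2 difference was 2.61 (standard error 0.30, adjusted p = 0.000671 from limma), a 6.09-fold higher signal in *naa20*. Its wildtype mean lay above that of 77.5% of probe sets, away from the lower end.

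*WRKY54* is the closest relative of *WRKY70*, and both together are known to restrain SA synthesis and leaf senescence. Its *naa20* signals were 5.11, 5.19 and 6.20, and its wildtype signals 3.61, 3.58 and 3.50. The wildtype arrays hardly differed (SD 0.05), while the third *naa20* array stood 1.05 above the mean of the first and second. The log2 difference was 1.94 (standard error 0.27, adjusted p = 0.00163 from limma) and 1.59 without the third *naa20* array.

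*WRKY53* promotes leaf senescence and acts early in that programme. It had the most even signals of the 10 within *naa20*, with 5.63, 5.69 and 5.71, and 4.37, 4.42 and 4.33 in wildtype. Its difference of 1.3 had the lowest standard error of the 10 (0.08), was 2.46-fold and the smallest among the called members, with an adjusted p of 6.12e-05 in limma. Leaving out each array in turn moved it only between 1.28 and 1.32.

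*WRKY41* is the close relative of *WRKY53* and is known in seed dormancy and in basal defence. Signals of 5.91, 5.59 and 5.79 in *naa20* stood against 3.24, 3.54 and 3.57 in wildtype. The SD was 0.16 in *naa20* and 0.18 in wildtype, where the first array was the lowest. The difference of 2.32 (standard error 0.13) had the lowest adjusted p of the members (4.41e-05 from limma). The signal in *naa20* was 4.98-fold higher.

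*WRKY46*, which acts with *WRKY53* and *WRKY70* in resistance to bacteria and also in osmotic stress and stomatal movement, had 3.84, 4.05 and 4.24 in *naa20*. In wildtype it had 2.43, 2.43 and 2.39. The groups lay 1.41 apart, and the difference was 1.63 (standard error 0.12, adjusted p = 9.67e-05 from limma). Its wildtype mean was among the lowest signals, with only 3.16% of probe sets below it.

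*WRKY62* and *WRKY38* are SA-induced relatives that act as negative regulators of basal defence. *WRKY62* had 5.69, 5.78 and 6.57 in *naa20* and 2.91, 3.14 and 2.94 in wildtype. This was the largest difference of the 10, with 3.02 on the log2 scale (standard error 0.23, adjusted p = 0.000123 from limma, 8.09-fold). Its wildtype mean lay low, with 14.0% of probe sets below, so the size of this fold and its place as the largest are less certain than its direction. *WRKY38* had 5.40, 5.50 and 7.01 in *naa20* and 3.48, 3.66 and 3.67 in wildtype. The third *naa20* array lay 1.56 above the mean of the first and second, the widest such step of the 10. The log2 difference of *WRKY38* was 2.37 (standard error 0.40, adjusted p = 0.00364 from limma), and without the third *naa20* array it was 1.84.

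*WRKY30* responds to reactive oxygen species and its protein binds those of *WRKY53*, *WRKY54* and *WRKY70*. Its signals were 4.95, 4.22 and 5.36 in *naa20* and 3.22, 2.94 and 3.39 in wildtype, with the second array lowest in each genotype. The difference was 1.66 (standard error 0.28, adjusted p = 0.00342 from limma) and varied between 1.41 and 1.97 as arrays were left out.

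*WRKY63*, also named *ABO3*, acts in abscisic acid and drought responses. It had 4.66, 4.01 and 4.08 in *naa20* and 2.33, 2.96 and 2.76 in wildtype. Here the first array was the highest in *naa20* and the lowest in wildtype, as in *WRKY41*, and the difference was 1.57 (standard error 0.22, adjusted p = 0.00161 from limma). Its wildtype mean was again low, with 7.95% of probe sets below it.

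*WRKY55*, for which a role in SA accumulation and senescence has been described, differed least. Its signals were 5.40, 5.29 and 5.29 in *naa20* and 5.01, 4.91 and 4.73 in wildtype. The groups did not overlap, but the gap between them was 0.27 and the difference 0.44 (standard error 0.10, adjusted p = 0.0141 from limma), a 1.36-fold higher signal. Its 95% interval of 0.20 to 0.68 lies below a 2-fold difference. Without the first *naa20* array the adjusted p was 0.0541 in limma (0.0108 to 0.0541 over all alternatives).

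**Figure D2:**
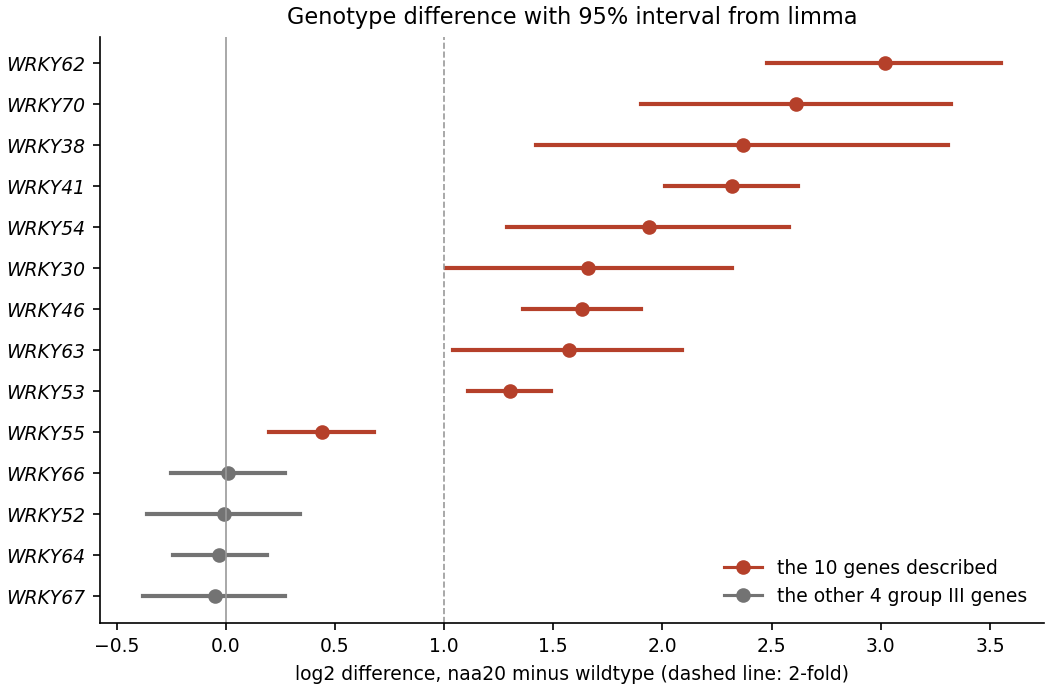
Log2 difference between *naa20* and wildtype (points) with the 95% interval from limma (lines) for the 10 genes described (red) and the other 4 genes of group III (grey), where the dashed line marks a 2-fold difference. The red intervals all lie above 0, that of *WRKY55* ends at 0.68, and the grey points sit between -0.05 and 0.01.

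Among the genes of group III outside the 10, no difference was found. *WRKY52*, also named *RRS1*, encodes an immune receptor fused to a WRKY domain, and its signals of 7.49, 7.73 and 7.41 in *naa20* overlapped those of 7.80, 7.54 and 7.32 in wildtype (log2 difference -0.01, 95% interval -0.36 to 0.34, adjusted p = 0.97 from limma). *WRKY64*, *WRKY66* and *WRKY67* had means between 2.27 and 3.04 in either genotype, among the low signals, where a difference could be missed. Their differences were -0.03, 0.01 and -0.05. None of these 4 had even an unadjusted p under 0.05 in limma (0 of 4). Counted over all 14 genes, 9 (64.3%) were called higher, and the median difference was 1.6.

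Neighbours on a chromosome did not always have equal differences. *WRKY54* and *WRKY55* are neighbours on chromosome 2 with no gene between them in the RefSeq table (assembly TAIR10.1), yet one differed by 1.94 and the other by 0.44. *WRKY67* and *WRKY64* are likewise neighbours on chromosome 1, with nearly equal differences of -0.05 and -0.03 at low signals. *WRKY63* follows after 3 other genes, and of these named genes on chromosome 1 only *WRKY63* was called. The other members lie on chromosomes 2 to 5.

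Whether 2 members differed by equal amounts was asked for 5 pairs, by the difference of both log2 signals within each array. *WRKY54* and *WRKY55* were paired as neighbours on the chromosome and *WRKY53* and *WRKY70* as the most studied, and the other pairs as close relatives. This cancels anything that scales a whole array, and it measures unequal change, not which gene is more abundant. The difference of *WRKY41* exceeded that of *WRKY53* by 1.02, that of *WRKY70* exceeded that of its relative *WRKY54* by 0.67, and that of *WRKY62* exceeded that of *WRKY38* by 0.65. *WRKY54* exceeded its neighbour *WRKY55* by 1.5, and *WRKY70* exceeded *WRKY53* by 1.31. In all 5 pairs the within-array values of the genotypes did not overlap, with p = 0.1 in the exact two-sided permutation test and 0.1 after Benjamini-Hochberg adjustment over the 5 pairs, again the floor of this design. How often pairs of other genes separate in this way was not computed. Taken singly, 6511 of the 27827 probe sets lay wholly higher in *naa20* and 6714 wholly lower, so separation alone is common on these arrays. For *WRKY54* minus *WRKY70* the separation was narrow, since the third wildtype array (-5.27) almost reached the highest *naa20* value (-5.32). It was also narrow for *WRKY38* minus *WRKY62*, where the third *naa20* array (0.45) almost reached the lowest wildtype value (0.52). The first and second *naa20* arrays of this pair were at -0.29 and -0.28. Whether relatives of similar sequence share signal on their probes was not tested.

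The members differed in how far the third *naa20* array stood from the first and second. *WRKY38*, *WRKY54*, *WRKY70*, *WRKY62* and *WRKY30* were higher on the third *naa20* array than on the mean of the first and second by 1.56, 1.05, 0.92, 0.83 and 0.77. The other 5 lay between -0.26 (*WRKY63*) and 0.30 (*WRKY46*). A step of over 0.5 was seen for 4.65% of all probe sets on that array, and this limit was chosen after the values were seen. Within wildtype the third array was higher by more than 0.5 for *WRKY70* alone (0.72). The median SD of the 10 genes was 0.42 in *naa20* and 0.13 in wildtype, against 0.14 and 0.13 over all probe sets. The step was not particular to group III. Among the SA perception genes 3 of 11 exceeded 0.5, with *NIMIN2* at 1.05, *NPR3* at 0.81 and *NIMIN1* at 0.55, and among the SA readouts *GRXC9* did, at 1.16. Of the 58 WRKY genes of other groups 6 exceeded it, with *WRKY18* highest at 2.02 and *WRKY40* at 1.29. None of the 11 genes of SA and pipecolate synthesis did (-0.39 to 0.14). The 7 root markers ranged from 0.0 to 0.9, with 3 of them over 0.5. The part of root tissue or of RNA quality in this step was not tested.

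**Figure D3:**
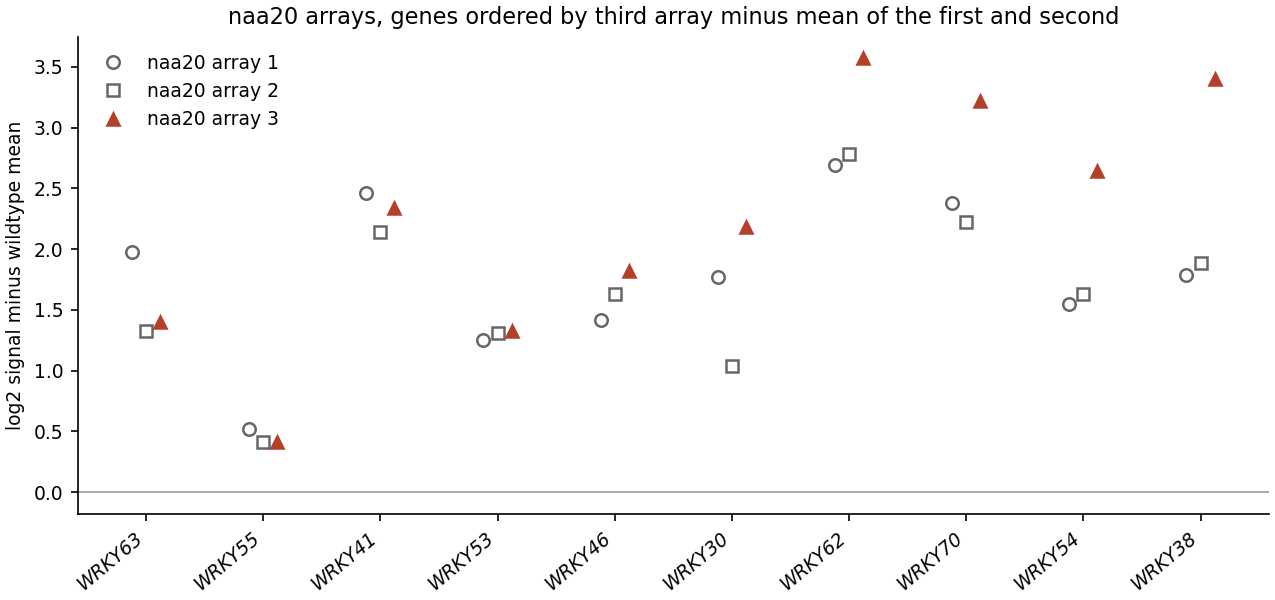
Log2 signal of each *naa20* array minus the wildtype mean for the 10 genes, ordered from left to right by the step of the third array (filled triangles) over the mean of the first and second (open circles and squares). From *WRKY30* rightwards the triangle lies at least 0.77 above the mean of the open symbols, and for the other 5 genes the step is at most 0.30.

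The 5 probe sets whose profile over the 6 arrays was most like the mean profile of the 10 genes, after each gene was centred on its own mean, had a root mean square distance of 0.0726 to 0.0928 on the log2 scale. They were AT3G11580, *APK2A* (AT1G14370), AT3G11402, *JAZ1* (AT1G19180) and *CRK24* (AT4G23320). *JAZ1*, a repressor of jasmonate signalling, had 10.30, 10.09 and 10.71 in *naa20* and 8.43, 8.28 and 8.51 in wildtype. The mean profile itself was 0.84, 0.70 and 1.29 in *naa20* and -1.03, -0.92 and -0.88 in wildtype. The genotype difference is itself part of each profile, so the 5 also had differences close to the members' mean (1.78 to 1.96).

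The rest of the WRKY family was more mixed. Of the 58 WRKY genes of other groups, 16 (27.6%) were called higher and 5 lower, with a median difference of 0.15, where 9 of the 10 group III genes described and 9 of all 14 were called higher. The range outside group III, from -1.3 in *WRKY27* to 3.66 in *WRKY8*, was wider than within it on both sides. No test of one part of the family against the other was made.

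Genes around the group III factors in the SA pathway were compared in the same fit. All 11 genes of SA and pipecolate synthesis and its regulators were called higher, with a median of 1.90 and a range from 1.27 in *EDS1* to 4.49 in *PBS3*. *ICS1*, which makes the SA precursor isochorismate and is restrained by *WRKY54* and *WRKY70*, had 8.08, 7.53 and 7.76 in *naa20* and 6.15, 6.25 and 6.06 in wildtype (difference 1.64, adjusted p = 0.000246 from limma). Genes for synthesis and for factors known to restrain it were thus both higher in *naa20*. Of the 11 genes of SA perception only *NIMIN2* (1.96), an inhibitor that binds NPR1, and the SA receptor gene *NPR3* (1.37) were called. *NPR1*, the coactivator through which SA induces *WRKY38*, *WRKY54*, *WRKY62* and *WRKY70*, had a difference of 0.55 (adjusted p = 0.00286 from limma), below 2-fold, and *TGA1* had the lowest (-0.55, adjusted p = 0.0104 from limma).

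Among 4 SA readouts 3 were called higher. Wildtype means of all 4 lay low, with 2.42% (*PR2*) to 14.3% (*PR1*) of probe sets below them, so the size of the folds is uncertain. Leaving out the lowest 25% of probe sets removed *PR2*, *PR5* and *GRXC9* from the test, and 1 gene, *PR1*, was then called. *PR1*, a marker of SA responses, had 9.41, 9.09 and 9.01 in *naa20* and 2.38, 2.31 and 4.34 in wildtype (difference 6.16, adjusted p = 0.000171 from limma). The third wildtype array was high here, as for *WRKY70*, but not for *WRKY38*, *WRKY54* or *WRKY62*. *PR5* differed by 1.17 and *GRXC9* by 1.02, the latter with an adjusted p of 0.0454 in limma (up to 0.161 under alternatives). *PR2* had the lowest difference (0.25, adjusted p = 0.409 from limma) at signals of 2.09 to 2.86 over the 6 arrays, where a difference could be missed.

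Of 8 jasmonate readouts, some of which *WRKY70* represses, 3 were called higher and 0 lower (0 lower at an unadjusted p under 0.05 in limma). These were *CORI3* (2.26, adjusted p = 0.0057 and up to 0.0542 under alternatives in limma), *LOX2* (2.19) and *VSP1* (1.31, adjusted p = 0.0307 and up to 0.132 under alternatives in limma). The defensin gene *PDF1.2C* had the lowest difference (-0.16, 95% interval -0.49 to 0.18) at signals of 2.47 to 2.93 over the 6 arrays. Wildtype means of *PDF1.2A*, *PDF1.2B*, *PDF1.2C*, *THI2.1* and *VSP2* were all low, with 0.241% (*PDF1.2A*) to 18.9% (*VSP2*) of probe sets below them. A lower signal in *naa20* could hardly show in these genes, so the lack of calls in that direction says little about them.

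Of 9 senescence genes, the process that *WRKY53* promotes and *WRKY54* and *WRKY70* restrain, 4 were called higher. They were *SAG13* (6.04), *WRKY6* (1.15), *SGR1* (1.15) and *PAO* (1.06), of which *SGR1* and *PAO* serve the breakdown of chlorophyll. The wildtype mean of *SAG13* lay low, with 23.8% of probe sets below it, so the size of its fold is uncertain. Its wildtype signals were 3.16, 3.28 and 4.42. *SAG12*, the usual marker of late senescence, had low signals (2.80 ± 0.07 in *naa20* and 2.71 ± 0.17 in wildtype, SD, n = 3, difference 0.09, adjusted p = 0.6 from limma). The lowest difference was that of *SWEET15* (-0.60, adjusted p = 0.65 from limma, 0.0123 with the replicate number as a block). Its signals were 8.03, 8.56 and 10.79 in *naa20* and 8.88, 9.01 and 11.29 in wildtype, lower in *naa20* within each number, and the difference ran from -1.44 to 0.18 as arrays were left out.

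Genes for proteins known to bind or modify group III factors were not called (0 of 8, and 1 higher and 1 lower at an unadjusted p under 0.05 in limma). *MPK3*, a kinase of defence signalling, had the highest difference (0.48, adjusted p = 0.0391 and up to 0.117 under alternatives in limma), and *BES1*, a brassinosteroid factor that works with *WRKY46*, *WRKY54* and *WRKY70*, the lowest (-0.63, adjusted p = 0.113 from limma, 0.033 with the replicate number as a block). *HDA19*, a histone deacetylase that binds the proteins of *WRKY38* and *WRKY62*, differed by 0.12 (95% interval -0.08 to 0.31).

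Of 5 genes described as direct targets of single members, only *AOX1A* was called. *AOX1A*, the alternative oxidase of mitochondria and a target of *WRKY63*, had 9.38, 9.42 and 9.53 in *naa20* and 8.0, 8.43 and 8.21 in wildtype, a difference of 1.23 (adjusted p = 0.000377 from limma). The other target listed for *WRKY63*, *ABF2*, differed by -0.09 (95% interval -0.65 to 0.46), and *ABI3*, a target of *WRKY41*, by 0.06 (-0.18 to 0.31). *QQS*, listed for *WRKY46*, had the lowest difference (-0.24, -0.63 to 0.15).

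**Figure D4:**
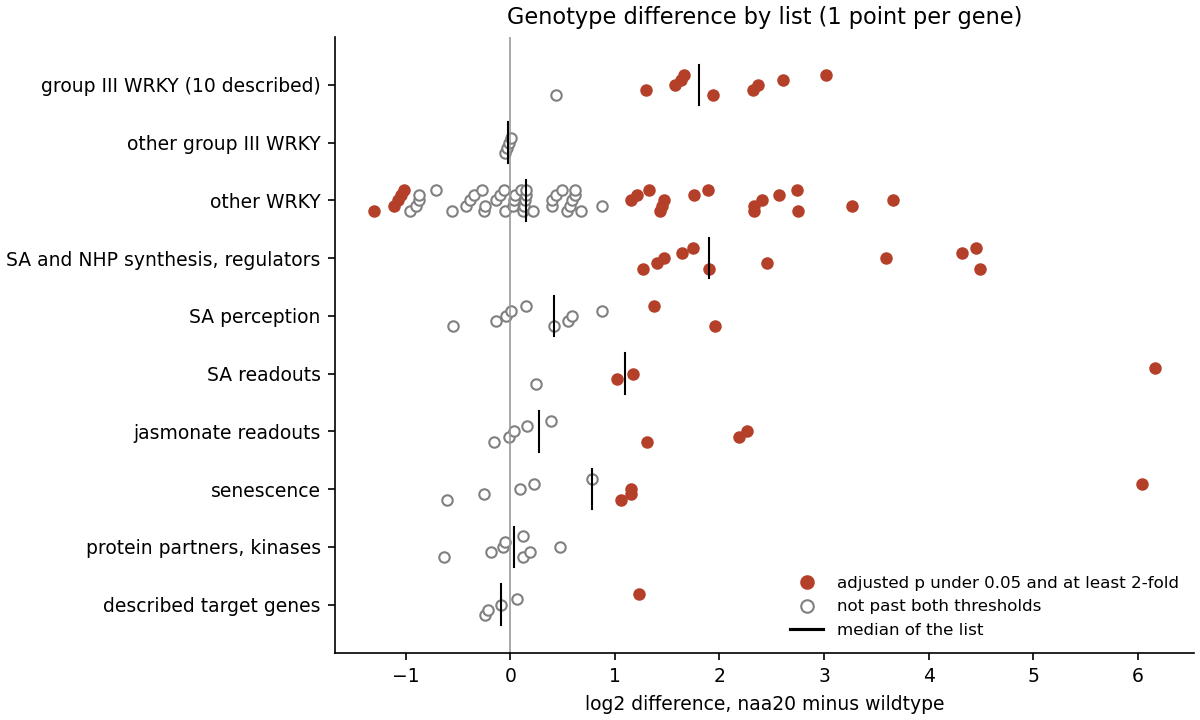
Log2 difference between *naa20* and wildtype for each gene (points) of the group III genes, the rest of the WRKY family and the 7 pathway lists (SA, salicylic acid; NHP, N-hydroxypipecolic acid), where red points were called and a black line marks the median. The medians are 1.80 for the 10 group III genes, 0.15 for the other WRKY genes and 1.90 for SA and pipecolate synthesis.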

How the data were processed

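The deposited values are log2 signals, which the authors made by RMA with quantile normalization for 27827 probe sets on 6 arrays and a custom chip definition (version 16) based on TAIR genes. The sorted values of the 6 arrays are the same. No scanner files were used, so whether a gene was above background is unknown. Precision is limited by having 6 arrays. Nothing says that arrays come from separate experiments, so p-values measure the spread between these samples.

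Signals were compared as deposited with limma 3.58.1 in R 4.3.3 (lmFit, eBayes, Benjamini-Hochberg adjustment over all probe sets). The fit was checked on simulated data. Symbols are from the RefSeq table (27241 of 27827 loci matched), or the usual name of the locus where it differs. No sequences are shown. Equal replicate numbers had correlated deviations (0.176, 0.19 and 0.385, all over 0.1), although for the first and second arrays unequal numbers gave nearly the same values (0.174 and 0.145). Only the alternative with the replicate number as a block took equal numbers as pairs. The main fit and the permutation tests were unpaired, and p-values given without a setting are from these. The labels do not say what a number shares.

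The members, lists and tests were chosen with earlier results of these data known. Named genes are all members, the other group III genes, the highest and lowest of each list with *PR1*, *ICS1* and *NPR1*, and the 5 nearest profiles. Other genes of the lists that are named, among them the called ones, *SAG12*, *HDA19*, *ABF2*, *ABI3* and those with a step on the third array, were chosen after their values were seen. Alternatives were the replicate block, trend and robust moderation, ordinary variance, leaving out the lowest 25% of probe sets, scaling to 5 reference genes, array weights, leaving out each array and, chosen after seeing the data, leaving out the third array of each genotype.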

Additional observations from a re-analysis of the deposited data

How the results depend on the processing

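The 9 group III genes called higher in *naa20* stayed at 9 under every alternative that tested all 10, including the replicate block (9 called, median 1.80, no call of a group III gene changed by the pairing). Leaving out the lowest 25% of probe sets removed *WRKY46* and *WRKY63* from the test by its construction, so that 7 of 8 were called and the median was 2.13. With each array left out in turn the median ran from 1.62 to 2.03, and the number of genes with an adjusted p under 0.05 from 9 to 10 in limma. Scaling to 5 reference genes moved the median of all probe sets to -0.05 and that of the group III genes to 1.75. The 7 pathway lists held 24 genes called higher, and 21 to 25 over the alternatives. Wildtype means of 7 of the 10 genes (*WRKY30*, *WRKY38*, *WRKY41*, *WRKY46*, *WRKY54*, *WRKY62* and *WRKY63*) were in the lowest 25% of probe sets, as were *WRKY64*, *WRKY66* and *WRKY67*, and whether these signals exceed background, which bears on the folds and their order, is unknown.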
